A study of Mus musculus with 24 samples.

Results

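The libraries described here came from astrocytes of control mice injected with lipopolysaccharide (LPS) or with saline. They were chosen by their titles, as all libraries titled astrocyte and Serpine2 control, and numbered 6 of the 24 libraries of the series, 3 after LPS and 3 after saline. The remaining libraries held astrocytes of Serpine2 knockout mice and microglia of both genotypes, 3 for each injection. LPS control astrocytes came from adult mice that kept 1 or more working alleles of Serpine2 and were injected with LPS, and saline control astrocytes came from adult mice of the same kind injected with saline. The control group can therefore hold animals that lack a single allele. The labels name neither strain, LPS dose and route nor the time from injection to dissection. Astrocytes were freed from perfused cerebral cortex with papain and held on dishes coated with antibodies, a method known as immunopanning. Libraries were made from total RNA with the Ovation V2 and NEBNext Ultra kits. The sexes were male, male and female for LPS controls 1, 2 and 3, and female, male and male for saline controls 1, 2 and 3. Siblings of both genotypes shared an injection as pairs, and nothing in the labels says that the 3 libraries of a group came from separate litters, so p-values measure the spread between these libraries.

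Astrocytes are the glial cells that take up glutamate and potassium at synapses, wrap blood vessels and supply lipids and growth factors to neurons. LPS, a part of the outer membrane of Gram-negative bacteria, is sensed through Toll-like receptor 4 with CD14. After an injection into the body, microglia, vessel cells and peripheral immune cells release cytokines such as TNF, IL-1 and interferons, and the adrenal gland releases glucocorticoids. Astrocytes answer such signals by becoming reactive: they raise intermediate filaments, secreted acute phase proteins, complement, and genes of the interferon pathway, in which JAK kinases and STAT factors switch on genes that carry an interferon-stimulated response element (ISRE). Marker sets named A1, A2 and pan-reactive were drawn up for astrocytes after LPS or after stroke and are used below as labels for lists of genes, not as cell states.

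The deposited values were read counts per gene. Levels are given in CPM, that is, counts scaled to library size with TMM factors, always in the order of libraries 1, 2 and 3. Fold changes are fitted log2 differences, LPS minus saline, with their standard error (SE). Adjusted p is that of edgeR's quasi-likelihood test after Benjamini-Hochberg adjustment over all genes tested, and a gene was called, or said to have risen or fallen, where it was under 0.05. Gene counts per library were 18598367, 16499761 and 10944765 after LPS, against 22362247, 23202563 and 17526466 after saline, and 22272 to 24444 genes had 1 or more reads. Mitochondrially encoded transcripts took 32.3 to 45.0% of gene counts over the 6 libraries, and sex-linked transcripts matched the labelled sex in all 12 astrocyte libraries and in 23 of all 24. The exception was the microglia library labelled LPS control 1, labelled female and with male transcripts. Serpine2, which encodes the secreted protease inhibitor that the knockout removes, had 16.9, 16.4 and 18.4 CPM in LPS knockout and 17.8, 17.4 and 22.2 CPM in saline knockout astrocytes, against 107, 80.1 and 78.2 CPM in LPS control and 92.6, 169 and 163 CPM in saline control astrocytes. Knockouts were thus below all controls, and the LPS and saline controls overlapped (log2 fold change -0.67, SE 0.24, adjusted p = 0.232). The 12 astrocyte markers, among them Aqp4, Gja1 and Aldh1l1, summed to 18226, 20656 and 20509 CPM after LPS, against 20470, 17981 and 18991 CPM after saline, and the ranges overlapped.

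In control astrocytes 141 of 18188 genes tested (0.775%) were higher after LPS and 28 (0.154%) were lower; 5 of the 141 are predicted genes. Among called higher genes that averaged at least 8 CPM over the 6 libraries, large changes were fitted for the secreted proteins Lcn2, Saa3, Serpina3n and Cxcl9, for interferon-stimulated genes such as Isg15 and Ifi44, and for antigen presentation genes such as Nlrc5 and H2-T23. Called lower genes included the matrix and growth factor genes Tnc, Ptn, Ncan and Vegfa. The median log2 fold change over all genes tested was -0.004. The called higher genes had a median of 3.00, and the called lower genes had a median of -1.44. In the 17 gene lists below with a member that rose and 0 that fell, 8 of 333 distinct tested members were lower with p under 0.05 before adjustment, while DESeq2 called 1 lower. All 3 LPS libraries lay above all 3 saline libraries for 1729 genes (9.51%), and among the 141 genes called higher this held for 140. Before adjustment 2192 genes had p under 0.05, and DESeq2 called 472 higher and 155 lower.

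**Figure D1:**
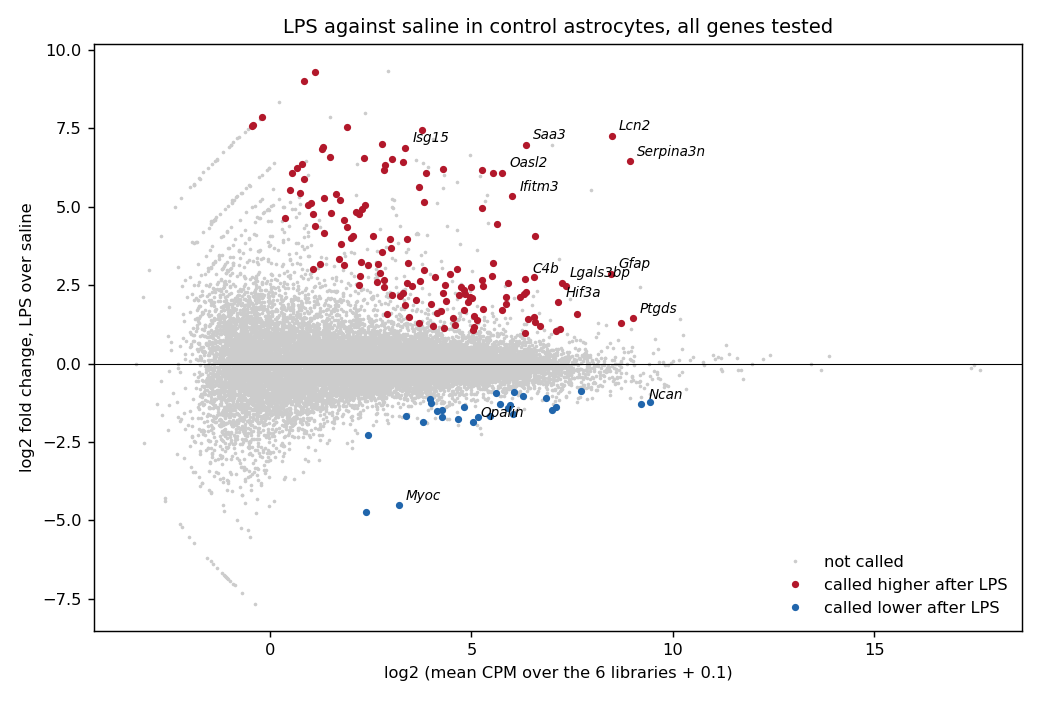
Fitted log2 fold change, LPS over saline, of each of the 18188 genes tested (vertical axis) against its mean level over the 6 control astrocyte libraries (horizontal axis, log2 of CPM + 0.1). Red points are the 141 genes called higher after LPS, blue points the 28 called lower and grey points the rest; Lcn2 and Serpina3n are far up at high level, and the lower genes mostly lie between -1 and -2.5.

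LPS control 3 stood apart from LPS controls 1 and 2. Over the 141 higher genes the median distance from the saline mean was 3.18, 3.43 and 2.07 on the log2 CPM scale in LPS controls 1, 2 and 3. LPS control 3 was the lowest of the 3 LPS libraries in 109 of the 141 genes and the highest in 13. In 83 genes it held less than 50% of the mean of the other two, and in 15 genes less than 10%. The extent differed between genes. For Lcn2 it held 2.58% of the mean of LPS controls 1 and 2 and for Serpina3n 9.73%, whereas it held 90.6% for C4b, 95.2% for Lgals3bp, 114% for Kcnt1 and 173% for Ifit3. LPS control 3 was also the shallowest of the 6 libraries and the only female among the LPS controls. In the LPS knockout libraries, of which library 3 is likewise the only female, the medians over the same genes were 2.97, 2.71 and 2.05. The part of depth or sex in these differences was not tested.

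The number of calls moved strongly with single libraries. Without LPS control 3, 316 of 19377 genes (1.63%) were higher and 160 (0.826%) were lower, and 135 of the 141 and 27 of the 28 genes were called again in the same direction. Without LPS control 1 or 2, 70 and 53 genes were higher and 4 and 2 lower. Without saline control 1, 2 or 3, 34, 32 and 38 genes were higher and 4, 4 and 5 lower. A total of 26 higher genes and 0 lower genes kept their call in all 6 of these fits. Among the 18 lower genes named below, each of the 3 fits without a saline library lost 14 calls, not always of the same genes.

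**Figure D2:**
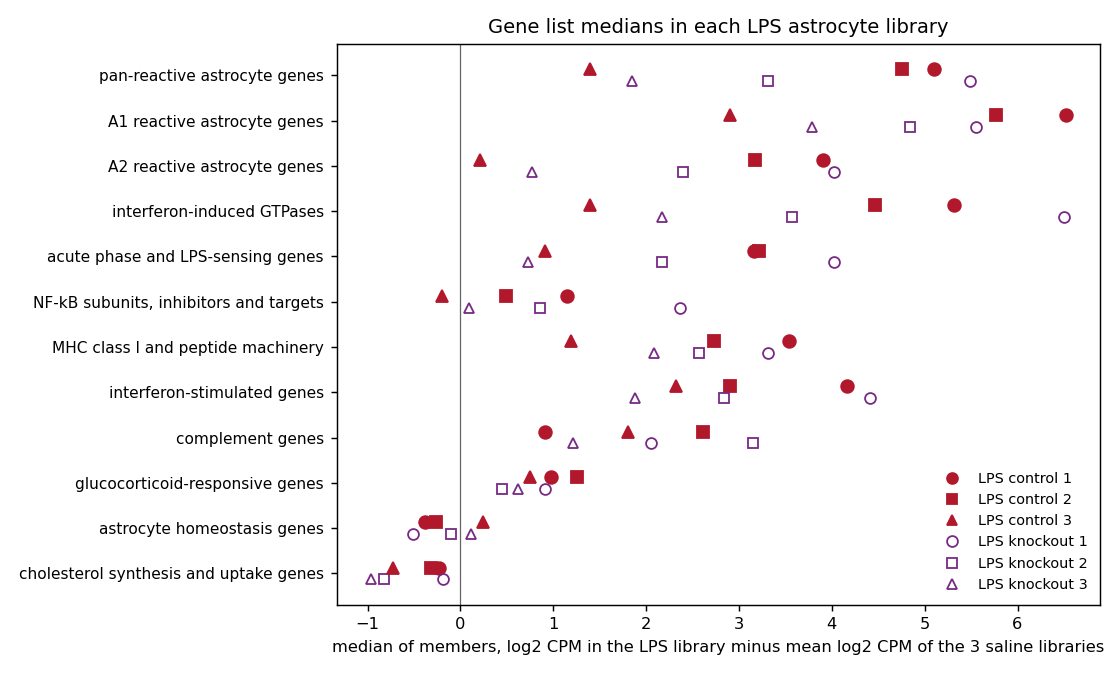
Median over the tested members of 12 gene lists of the log2 CPM in an LPS library minus the mean log2 CPM of the 3 saline libraries of the same genotype (horizontal axis), for LPS control 1, 2 and 3 (filled red) and LPS knockout 1, 2 and 3 (open purple). LPS control 3 is the lowest of the 6 libraries for the pan-reactive genes at 1.39 and for the A1 genes at 2.90, and it lies among the others for the interferon-stimulated genes at 2.32.

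Secreted acute phase proteins were among the called genes. Lcn2 (ENSMUSG00000026822, chromosome 2, 32384633 to 32388252, minus strand, GRCm38), which encodes the iron-siderophore binding protein lipocalin 2, had 1062, 1036 and 27.04 CPM in the LPS libraries, against 4.64, 4.24 and 4.98 CPM in the saline libraries. All 3 LPS libraries lay above the saline libraries, but LPS control 3 by far less than the other two (log2 fold change 7.26, SE 1.24, adjusted p = 0.0362). Serpina3n (ENSMUSG00000021091, chromosome 12, 104406729 to 104414329, plus strand), a secreted serine protease inhibitor and a common marker of reactive astrocytes, had 1362, 1404 and 135 CPM in the LPS libraries, against 11.1, 12.4 and 9.52 CPM in the saline libraries. The groups did not overlap (log2 fold change 6.45, SE 0.88, adjusted p = 0.0082). Saa3 (ENSMUSG00000040026, chromosome 7, 46711998 to 46715700, minus strand), a serum amyloid A protein, had 177, 285 and 22.2 CPM in the LPS libraries, against 1.28, 1.14 and 1.41 CPM in the saline libraries, again without overlap (log2 fold change 6.98, SE 0.97, adjusted p = 0.0107). A2m, the protease trap alpha-2-macroglobulin, was singled out after its values were seen and had 111, 138 and 36.4 CPM after LPS, against 3.83, 4.79 and 4.49 CPM after saline (log2 fold change 4.44, SE 0.61, adjusted p = 0.0042). Il4ra, a chain of the interleukin 4 receptor, had 4.38, 4.68 and 1.57 CPM after LPS, against 0.357, 0.73 and 0.216 CPM after saline (log2 fold change 3.0, SE 0.69, adjusted p = 0.0474). Of 23 acute phase and LPS-sensing genes 17 were tested, 4 rose (Lcn2, Saa3, Serpina3n and Il4ra) and 0 fell, and the list's median log2 fold change was 3.00. Of these 5 genes, 2, 2 and 0 lost the call without LPS control 1, 2 and 3 in turn, and 5, 4 and 4 without saline control 1, 2 and 3 (adjusted p up to 0.216). With only the 6 libraries of this comparison in the fit, 2 of 15 tested were called; Lcn2 (adjusted p = 0.154), Saa3 (adjusted p = 0.0673) and Serpina3n (adjusted p = 0.0641) were not.

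Other members of that list did not pass the test. The iron oxidase gene Cp had 77.3, 60.9 and 2.56 CPM after LPS, against 0.97, 2.97 and 3.35 CPM after saline, so that LPS control 3 lay within the saline range (log2 fold change 4.27, SE 1.15, adjusted p = 0.149). The metalloreductase gene Steap4 had 13.8, 16.5 and 0 CPM after LPS, against 0.051, 0 and 0.0541 CPM after saline, with no read in LPS control 3 (adjusted p = 0.198). Cd14, the co-receptor for LPS, had 5.56, 5.56 and 2.89 CPM after LPS, against 0.715, 1.83 and 1.298 CPM after saline; its groups did not overlap, yet it missed the threshold (log2 fold change 1.86, SE 0.59, adjusted p = 0.166). In the fit without LPS control 3, 8 of the 17 were called higher, among them Cp (adjusted p = 0.00127) and Steap4 (adjusted p = 0.0318).

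**Figure D3:**
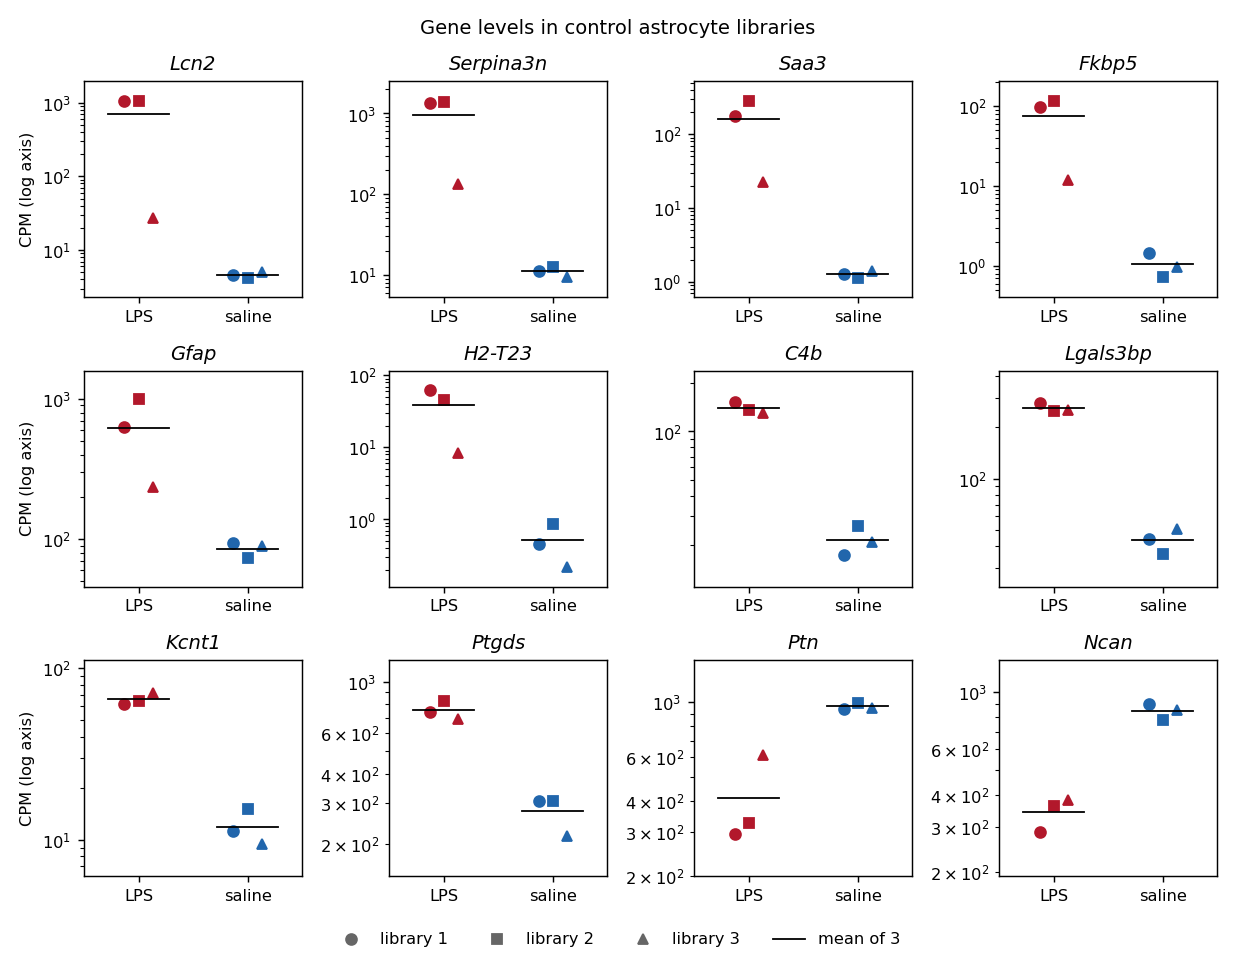
CPM on log axes of 12 genes in LPS control libraries (red, left of each panel) and saline control libraries (blue, right), with a symbol for each library number and a line at the mean of 3. Lcn2, Serpina3n, Saa3, Fkbp5 and H2-T23 show LPS control 3 (triangle) well below LPS controls 1 and 2, whereas C4b, Lgals3bp, Kcnt1 and Ptgds show the 3 LPS libraries close together; Ptn and Ncan are lower after LPS.

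The intermediate filament genes that define reactive astrocytes rose. Gfap had 634, 999 and 236 CPM in the LPS libraries, against 94.7, 73.1 and 89.6 CPM in the saline libraries (log2 fold change 2.86, SE 0.46, adjusted p = 0.00786). Vim, which encodes vimentin, had 114, 201 and 72.97 CPM in the LPS libraries, against 28.3, 26.1 and 28.8 CPM in the saline libraries (log2 fold change 2.22, SE 0.36, adjusted p = 0.00575). The ranges were apart for both, and both fitted changes were between 4.67-fold and 7.26-fold. Of 13 pan-reactive genes, all tested, 5 rose and 0 fell, with a median of 4.27; beside Gfap, Vim, Lcn2 and Serpina3n this was Hspb1, a small heat shock protein, with 10.1, 8.41 and 0.33 CPM after LPS, against 0.153, 0.228 and 0.108 CPM after saline (log2 fold change 5.2, SE 1.05, adjusted p = 0.0263). The other 8 did not pass: Timp1, an inhibitor of matrix proteases, had 55.96, 61.2 and 0.825 CPM after LPS, against 1.33, 0.32 and 0.162 CPM after saline (log2 fold change 6.02, SE 1.42, adjusted p = 0.103), and the oncostatin M receptor gene Osmr had 532, 237 and 15.8 CPM after LPS, against 24.96, 20.8 and 32.1 CPM after saline (log2 fold change 3.34, SE 1.4, adjusted p = 0.39). The fit without LPS control 3 called 9 of the 13 higher, among them Timp1 at an adjusted p of 6.1e-05, and the fit on the 6 libraries alone called 2 of 11.

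Among 12 tested A1 genes 10 rose and 0 fell, with a median of 6.02. Those called were Amigo2, C3, Fbln5, Fkbp5, Ggta1, H2-D1, H2-T23, Psmb8, Serping1 and Srgn, of which several also stand in the antigen presentation and complement lists. Amigo2, an adhesion protein, had 125, 98.4 and 25.4 CPM in the LPS libraries, against 10.2, 10.04 and 6.49 CPM in the saline libraries (log2 fold change 3.22, SE 0.50, adjusted p = 0.00698). Fbln5, a protein of elastic fibres, had 12.4, 21.4 and 10.1 CPM after LPS, against 0.97, 1.28 and 0.487 CPM after saline (log2 fold change 3.99, SE 0.56, adjusted p = 0.00167). LPS control 3 stayed near the other two for Fbln5 and held 22.7% of their mean for Amigo2. Ggta1, a galactosyltransferase, had 55.1, 46.4 and 25.5 CPM after LPS, against 9.49, 8.03 and 10.3 CPM after saline (log2 fold change 2.19, SE 0.42, adjusted p = 0.0179), and Srgn, the proteoglycan core protein serglycin, had 7.07, 15.5 and 2.31 CPM after LPS, against 0.306, 0.182 and 0.379 CPM after saline (log2 fold change 4.82, SE 0.91, adjusted p = 0.0162). The 2 A1 genes not called were the interferon-induced GTPase genes Gbp2 and Iigp1: Gbp2 had 475, 268 and 14.6 CPM after LPS, against 1.22, 1.83 and 3.03 CPM after saline, a wide spread with no overlap (log2 fold change 6.96, SE 1.76, adjusted p = 0.135), and Iigp1 had 165, 42.9 and 11.05 CPM after LPS, against 0.868, 1.41 and 1.19 CPM after saline (log2 fold change 5.97, SE 1.7, adjusted p = 0.182). Of 11 tested A2 genes 1 rose, the membrane protein gene Tm4sf1, with 3.82, 3.51 and 0.412 CPM after LPS, against 0.102, 0.0456 and 0 CPM after saline (adjusted p = 0.021, from 3 reads in all after saline). The A2 list's median was 2.86, and 10 of its 11 members had a positive fold change. Over all genes tested 0.775% rose. Before adjustment 7 of the 11 were higher and 0 lower with p under 0.05, and DESeq2 called 4 higher. Counted together were Gfap, Vim, Hspb1, Amigo2, Fbln5, Ggta1, Srgn and Tm4sf1. Of these 8 genes, 3, 4 and 0 lost the call without LPS control 1, 2 and 3 in turn. Without saline control 1, 2 and 3, 7, 7 and 6 lost it (adjusted p up to 0.171). Fbln5 kept it in all 6 of those fits. On the 6 libraries alone 0 of 8 tested A2 genes were called, and without LPS control 3, 3 of 11 were called higher.

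Of 45 tested interferon-stimulated genes 13 rose and 0 fell, all 45 had a positive fold change, and the median was 3.42. LPS and saline ranges were apart for 40 of the 45, against 9.51% of all genes with LPS above saline. Ifitm3, which blocks entry of enveloped viruses, had 148, 162 and 68.6 CPM in the LPS libraries, against 3.78, 3.33 and 2.27 CPM in the saline libraries. This was a 40.2-fold rise with the smallest adjusted p of the genes named here (log2 fold change 5.33, SE 0.39, adjusted p = 2.74e-06). Isg15 (ENSMUSG00000035692, chromosome 4, 156199424 to 156200818, minus strand), a ubiquitin-like modifier, had 32.9, 19.4 and 8.33 CPM in the LPS libraries, against 0.102, 0.228 and 0.162 CPM in the saline libraries (log2 fold change 6.88, SE 1.11, adjusted p = 0.012). Oasl2, a member of the oligoadenylate synthetase family, had 159, 82.3 and 79.6 CPM after LPS, against 0.51, 2.19 and 2.001 CPM after saline (log2 fold change 6.08, SE 0.66, adjusted p = 0.000804). Ifi44 had 35.9, 17.1 and 4.62 CPM after LPS, against 0.051, 0.228 and 0.379 CPM after saline (log2 fold change 6.43, SE 0.94, adjusted p = 0.00575). For Oasl2, LPS controls 2 and 3 were alike, and for Ifi44 the 3 LPS libraries spread widely.

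LPS control 3 was not the lowest LPS library for every member. Ifit3, which binds viral RNA complexes, had 44.9, 30.3 and 65.1 CPM after LPS, against 5.66, 11.8 and 9.95 CPM after saline (log2 fold change 2.35, SE 0.51, adjusted p = 0.043), with its highest value in LPS control 3. Ifi27 had 41.1, 39.1 and 60.9 CPM after LPS, against 13.3, 8.67 and 8.38 CPM after saline (log2 fold change 2.22, SE 0.34, adjusted p = 0.00343) and Rtp4 8.58, 5.12 and 10.4 CPM after LPS, against 0.612, 1.597 and 1.24 CPM after saline (log2 fold change 2.79, SE 0.57, adjusted p = 0.025), both also highest there. Lgals3bp, a secreted galectin ligand, had 278, 251 and 252 CPM in the LPS libraries, against 44.3, 35.9 and 50.5 CPM in the saline libraries, a narrow rise of 5.97-fold (log2 fold change 2.58, SE 0.22, adjusted p = 1.28e-05). Usp18, a protease that removes ISG15 from proteins and damps interferon signalling, had 22.3, 8.12 and 11.96 CPM after LPS, against 0.102, 0.0913 and 0.325 CPM after saline (log2 fold change 6.34, SE 0.93, adjusted p = 0.00343). Bst2, which tethers virus particles, had 18.6, 13.8 and 8.99 CPM after LPS, against 0.459, 0.0913 and 0 CPM after saline (log2 fold change 6.18, SE 0.78, adjusted p = 0.000804). Zbp1, a sensor of Z-form nucleic acids, had 10.99, 7.095 and 3.96 CPM after LPS, against 0.051, 0.0456 and 0 CPM after saline, from 2 reads in all after saline (adjusted p = 0.00343).

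Kinases and transcription factors that carry the interferon signal were looked at as well. Among 29 tested JAK, STAT, IRF and Socs genes 2 rose, against 0.775% of all genes tested, 0 fell and the median was 0.62. Before adjustment 9 were higher and 0 lower with p under 0.05, and DESeq2 called 4 higher. Irf7 had 14.3, 13.4 and 6.35 CPM after LPS, against 2.296, 0.958 and 0.487 CPM after saline (log2 fold change 3.18, SE 0.67, adjusted p = 0.033), and Irf9, the DNA-binding part of the factor that recognises the ISRE, had 35.7, 17.6 and 25.7 CPM after LPS, against 11.2, 8.21 and 6.38 CPM after saline (log2 fold change 1.62, SE 0.37, adjusted p = 0.0482). Stat3, which carries signals of the interleukin 6 family, had 240.3, 158 and 65.1 CPM after LPS, against 46.7, 50.6 and 55.01 CPM after saline (log2 fold change 1.61, SE 0.45, adjusted p = 0.12); its groups were apart and the test was not passed. Counted together were Ifitm3, Isg15, Oasl2, Ifi44, Ifit3, Ifi27, Rtp4, Lgals3bp, Usp18, Bst2, Zbp1, Irf7 and Irf9. Of these 13 genes, 4, 3 and 1 lost the call without LPS control 1, 2 and 3 in turn. Without saline control 1, 2 and 3, 7, 7 and 5 lost it (adjusted p up to 0.226). Oasl2, Ifitm3, Bst2, Zbp1, Ifi27 and Lgals3bp kept it in all 6 of those fits. On the 6 libraries alone 27 of 44 interferon-stimulated genes and 4 of 27 JAK, STAT, IRF and Socs genes were called. Without LPS control 3, 20 of the 45 were called, Stat3 was called (adjusted p = 0.00959), and Ifit3 was not (adjusted p = 0.0503).

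Interferon-induced GTPases act against intracellular pathogens. Of 17 tested 1 rose (Gbp10), against 0.775% of all genes tested, and the list's median was 5.2. With genes that had no read after saline set to a floor of 3 counts over that group, the median was 4.92. All 17 had a positive fold change, and 10 had ranges that were apart, against 9.51% of all genes with LPS above saline. Before adjustment 15 were higher with p under 0.05, DESeq2 called 12 higher, and edgeR called 5 higher without LPS control 3. Their spread between LPS libraries was wide, as for Gbp2 and Iigp1 above, and 2 of 13 tested were called on the 6 libraries alone.

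Promoters were searched for the motifs of factors named above. The letters searched were GAAA, any 2 bases and GAAA for the ISRE, and TTC, any 3 bases and GAA for the STAT site. They were GGGA, any 4 bases and CC for the NF-kB site, and GNACA, any 3 bases and TGTNC for the glucocorticoid response element. Both strands were searched, and overlapping matches counted, in the 300 bases from 250 before to 50 after each RefSeq gene start (GRCm38.p6). The ISRE was found in 3.44% of all 32841 promoters, the STAT site in 8.30%, the NF-kB site in 20.7% and the glucocorticoid element in 0.475%. Of the 141 higher genes 102 were matched, with 125 promoters, of which 16% held the ISRE, 10.4% the STAT site, 32% the NF-kB site and 2.4% the glucocorticoid element. Of the 9 promoters matched to the 13 called interferon-stimulated genes, 5 held the ISRE. Of 32 promoters matched to the lower genes, 1 held it. Of the 7 promoters matched to the 8 called glucocorticoid-responsive genes, a list described below, 1 held the glucocorticoid element. A match is a run of letters, not a shown binding site. The 250 bases before the start of 3 called genes with the ISRE are shown first, each 5′ to 3′ on the gene's strand with the matches on either strand in capitals. They are followed by Serpina3n, which is not on the list of glucocorticoid-responsive genes. In it the capitals mark the glucocorticoid element.
Isg15 (chr4:156200819-156201068, minus strand): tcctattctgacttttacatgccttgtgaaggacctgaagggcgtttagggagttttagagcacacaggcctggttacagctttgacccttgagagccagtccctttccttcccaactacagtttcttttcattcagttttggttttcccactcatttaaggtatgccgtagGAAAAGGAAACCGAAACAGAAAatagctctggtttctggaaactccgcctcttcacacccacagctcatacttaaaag
Ifit3 (chr19:34583279-34583528, plus strand): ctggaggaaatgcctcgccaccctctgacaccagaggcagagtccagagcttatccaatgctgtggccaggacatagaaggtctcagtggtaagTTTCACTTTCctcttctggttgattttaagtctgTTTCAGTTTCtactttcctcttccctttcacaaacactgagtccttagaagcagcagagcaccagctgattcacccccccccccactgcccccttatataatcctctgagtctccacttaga
H2-T23 (chr17:36032702-36032951, minus strand): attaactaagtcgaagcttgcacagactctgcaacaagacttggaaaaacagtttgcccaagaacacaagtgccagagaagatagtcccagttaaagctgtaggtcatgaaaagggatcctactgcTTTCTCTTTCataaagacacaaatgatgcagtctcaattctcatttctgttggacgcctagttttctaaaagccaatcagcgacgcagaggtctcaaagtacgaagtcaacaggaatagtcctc
Serpina3n (chr12:104406458-104406707, plus strand): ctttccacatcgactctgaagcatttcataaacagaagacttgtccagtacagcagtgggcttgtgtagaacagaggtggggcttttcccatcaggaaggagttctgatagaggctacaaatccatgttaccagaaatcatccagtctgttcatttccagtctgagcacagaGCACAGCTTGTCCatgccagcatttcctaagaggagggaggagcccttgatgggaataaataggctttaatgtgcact
Isg15 held 3 overlapping matches, the first beginning 78 bases before the start site, and Ifit3 held 2, the first 156 bases before it. H2-T23 held 1 at 124 bases and Serpina3n 1 glucocorticoid element at 78 bases before the start.

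MHC class I shows peptides of the cell's own proteins to CD8 T cells. Of 23 tested genes of this pathway 11 rose and 0 fell, with a median of 2.72. The heavy chain gene H2-D1 had 285, 199.9 and 58.9 CPM in the LPS libraries, against 11.5, 13.6 and 7.41 CPM in the saline libraries (log2 fold change 4.06, SE 0.49, adjusted p = 0.00105). H2-K1 had 275, 161 and 50.96 CPM in the LPS libraries, against 19.4, 32.3 and 20.99 CPM in the saline libraries (log2 fold change 2.75, SE 0.43, adjusted p = 0.00575). The non-classical heavy chain gene H2-T23 (ENSMUSG00000067212, chromosome 17, 36029773 to 36032855, minus strand) had 62.5, 45.5 and 8.41 CPM in the LPS libraries, against 0.459, 0.867 and 0.216 CPM in the saline libraries (log2 fold change 6.19, SE 0.69, adjusted p = 0.000548). In all of these LPS control 3 was lowest and still above every saline library. Reads of H2 genes may be split between near-identical copies. B2m, the light chain shared by all class I molecules, had 313, 362 and 152 CPM in the LPS libraries, against 47.6, 50.6 and 51.01 CPM in the saline libraries, a 5.54-fold rise (log2 fold change 2.47, SE 0.28, adjusted p = 0.000398).

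Nlrc5, the activator that drives class I genes, had 28.6, 11.8 and 7.75 CPM after LPS, against 0.153, 0.137 and 0.216 CPM after saline (log2 fold change 6.53, SE 0.98, adjusted p = 0.00575). The immunoproteasome subunits, which cut the peptides, were called as well: Psmb8 had 43.3, 35.9 and 7.17 CPM after LPS, against 0.306, 0.776 and 0.162 CPM after saline (log2 fold change 6.06, SE 0.77, adjusted p = 0.00135), Psmb9 had 17.8, 11.9 and 2.97 CPM after LPS, against 0.97, 0.639 and 0.325 CPM after saline (log2 fold change 4.07, SE 0.70, adjusted p = 0.0085), and Psmb10 had 73.3, 45.9 and 13.6 CPM after LPS, against 5.001, 6.34 and 4.98 CPM after saline (log2 fold change 3.02, SE 0.52, adjusted p = 0.0105). Psme1, a proteasome activator subunit, had 30.3, 42.1 and 16.2 CPM after LPS, against 5.82, 2.74 and 4.44 CPM after saline (log2 fold change 2.77, SE 0.38, adjusted p = 0.00137). Tapbp, or tapasin, which helps to load the peptide, had 138, 75.5 and 23.3 CPM after LPS, against 11.1, 13.5 and 9.52 CPM after saline (log2 fold change 2.8, SE 0.47, adjusted p = 0.00919). The peptide transporter gene Tap1 had 112, 22.5 and 11.8 CPM after LPS, against 3.78, 2.601 and 4.003 CPM after saline and was not called (log2 fold change 3.82, SE 1.22, adjusted p = 0.234). In MHC class II, 1 of 6 tested genes rose, H2-Ab1, with 5.56, 4.46 and 1.15 CPM after LPS, against 0.102, 0.0456 and 0.162 CPM after saline (log2 fold change 5.12, SE 0.99, adjusted p = 0.0179), and Cd74, the invariant chain, had 6.32, 2.999 and 0.66 CPM after LPS, against 0, 0.73 and 0.162 CPM after saline (log2 fold change 3.44, SE 0.93, adjusted p = 0.0989). Counted together were the 10 called class I pathway genes named above and H2-Ab1. Of these 11 genes, 1, 1 and 0 lost the call without LPS control 1, 2 and 3 in turn. Without saline control 1, 2 and 3, 5, 5 and 6 lost it (adjusted p up to 0.134). H2-T23, H2-D1, B2m, Psmb8 and Psme1 kept it in all 6 of those fits. H2-K1 (adjusted p = 0.0784) and Tapbp (adjusted p = 0.0666) lost it on the 6 libraries alone.

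Among 17 tested complement genes 5 rose, 0 fell and the median was 2.01. C4b (ENSMUSG00000073418, chromosome 17, 34728380 to 34743882, minus strand), a component of the classical pathway, had 152, 136 and 130.4 CPM in the LPS libraries, against 17.1, 25.9 and 20.8 CPM in the saline libraries. The 3 LPS libraries lay close together, and the rise was 6.54-fold (log2 fold change 2.71, SE 0.24, adjusted p = 1.28e-05). C3, the central component, had 25.1, 13.97 and 1.07 CPM in the LPS libraries, against 0, 0.137 and 0.162 CPM in the saline libraries (log2 fold change 6.98, SE 1.08, adjusted p = 0.00674). Serping1, the inhibitor of the C1 proteases, had 151, 113 and 10.6 CPM in the LPS libraries, against 1.79, 0.822 and 1.46 CPM in the saline libraries (log2 fold change 6.08, SE 0.91, adjusted p = 0.0128). The C1 protease gene C1ra had 20.5, 8.34 and 0.66 CPM after LPS, against 0, 0.137 and 0.162 CPM after saline (log2 fold change 6.54, SE 1.24, adjusted p = 0.0228). Its partner C1s1 had 5.61, 3.58 and 0.989 CPM after LPS, against 0, 0 and 0 CPM after saline (adjusted p = 0.00498); a count of 0 over the saline group allows up to 0.0476 CPM. Of these 5 genes, 1, 1 and 0 lost the call without LPS control 1, 2 and 3 in turn, and 3, 3 and 3 without saline control 1, 2 and 3 (adjusted p up to 0.159), and C4b and C1s1 kept it in all 6 of those fits. Serping1 lost it on the 6 libraries alone (adjusted p = 0.1).

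Of 25 tested cytokine and chemokine genes 2 rose, against 0.775% of all genes tested. Cxcl9 (ENSMUSG00000029417, chromosome 5, 92321347 to 92328079, minus strand), a chemokine induced by interferon gamma that attracts T cells, had 51.3, 29.1 and 0.742 CPM in the LPS libraries, against 0.051, 0.137 and 0.271 CPM in the saline libraries. LPS control 3 was close to the saline libraries, and the groups did not overlap (log2 fold change 7.43, SE 1.41, adjusted p = 0.043). Ccl12, a ligand of CCR2, had 0.66, 0.293 and 2.89 CPM after LPS, against 0, 0 and 0 CPM after saline (adjusted p = 0.0411), highest in LPS control 3. Cxcl10, a further ligand of the Cxcl9 receptor, had 466, 135 and 32.4 CPM in the LPS libraries, against 3.67, 4.02 and 5.36 CPM in the saline libraries and was not called (log2 fold change 5.6, SE 1.94, adjusted p = 0.281). Ccl2 had 7.402, 5.19 and 1.07 CPM after LPS, against 0.408, 0.822 and 0.271 CPM after saline (log2 fold change 3.17, SE 1.32, adjusted p = 0.364). The list's median was 0.81. Before adjustment 9 of the 25 were higher and 1 lower with p under 0.05, and DESeq2 called 5 higher and 1 lower.

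Of 25 NF-kB subunits, inhibitors and targets 1 rose, against 0.775% of all genes tested, with a median of 0.74. This was Tnfrsf1a, a receptor for TNF, with 81.6, 46.4 and 23.7 CPM after LPS, against 13.5, 13.3 and 8.33 CPM after saline (log2 fold change 2.11, SE 0.44, adjusted p = 0.029). The inhibitor gene Nfkbia, itself a target of NF-kB, had 31.4, 19.7 and 9.89 CPM after LPS, against 5.97, 7.35 and 6.004 CPM after saline; the groups were apart and the test was not passed (log2 fold change 1.66, SE 0.52, adjusted p = 0.163). Cxcl9, Ccl12 and Tnfrsf1a lost the call without LPS control 1, without LPS control 2 and without each saline library (adjusted p up to 0.222), Cxcl9 also on the 6 libraries alone (adjusted p = 0.161), and Ccl12 also without LPS control 3 (adjusted p = 0.0537). On the 6 libraries alone 3 of the 25 NF-kB genes were called, and without LPS control 3, 4 were, among them Nfkbia (adjusted p = 0.0448).

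Genes that glucocorticoids are known to induce formed a further group. Of 27 tested 8 rose and 0 fell, with a median of 1.08; Lcn2 is among the 8. Fkbp5, a co-chaperone of the glucocorticoid receptor, had 99.5, 115 and 12.04 CPM in the LPS libraries, against 1.43, 0.73 and 0.974 CPM in the saline libraries. LPS control 3 held 11.2% of the mean of the other two LPS libraries (log2 fold change 6.18, SE 0.83, adjusted p = 0.00575). Plin4, a coat protein of lipid droplets, had 94.1, 105 and 25.6 CPM in the LPS libraries, against 1.48, 3.47 and 2.27 CPM in the saline libraries (log2 fold change 4.95, SE 0.63, adjusted p = 0.00178). Sult1a1, a sulfotransferase, had 27.5, 47.5 and 41.9 CPM in the LPS libraries, against 4.797, 6.66 and 4.71 CPM in the saline libraries, with LPS control 3 between LPS controls 1 and 2 (log2 fold change 2.85, SE 0.34, adjusted p = 0.000458). Hif3a, a member of the hypoxia-inducible factor family, had 316, 195 and 167 CPM after LPS, against 48.6, 51.1 and 75.1 CPM after saline (log2 fold change 1.96, SE 0.32, adjusted p = 0.00575). The transcription factor gene Zbtb16 had 37.01, 40.2 and 18.7 CPM after LPS, against 9.65, 5.75 and 4.81 CPM after saline (log2 fold change 2.25, SE 0.43, adjusted p = 0.0165), and Klf15 had 44.6, 49.96 and 39.99 CPM after LPS, against 25.5, 20.5 and 17.5 CPM after saline (log2 fold change 1.08, SE 0.23, adjusted p = 0.0331).

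Other members of that list were higher in every LPS library without passing the test. Tsc22d3, which encodes the glucocorticoid-induced leucine zipper, had 94.6, 124 and 126 CPM after LPS, against 52.7, 40.3 and 52.4 CPM after saline (log2 fold change 1.25, SE 0.29, adjusted p = 0.0501). Sgk1, a kinase, had 67.04, 61.4 and 30.3 CPM after LPS, against 18.3, 25.5 and 15.8 CPM after saline (log2 fold change 1.41, SE 0.40, adjusted p = 0.12). Metal handling genes overlapped this group: of 22 tested 3 rose, namely Lcn2, the metallothionein gene Mt1 with 359, 343 and 175 CPM after LPS, against 128, 98.03 and 69.7 CPM after saline (log2 fold change 1.57, SE 0.35, adjusted p = 0.0436), and the zinc transporter gene Slc39a1 with 63.4, 56.5 and 34.1 CPM after LPS, against 15.8, 22.8 and 19.7 CPM after saline (log2 fold change 1.4, SE 0.30, adjusted p = 0.0326). Mt2 had 4.86, 4.096 and 1.07 CPM after LPS, against 0.97, 1.32 and 0.379 CPM after saline and overlapped (log2 fold change 1.9, SE 0.72, adjusted p = 0.265). Counted together were Fkbp5, Plin4, Sult1a1, Hif3a, Zbtb16, Klf15, Mt1 and Slc39a1, without Lcn2. Of these 8 genes, 4, 4 and 0 lost the call without LPS control 1, 2 and 3 in turn. Without saline control 1, 2 and 3, 5, 6 and 5 lost it (adjusted p up to 0.222). Plin4 and Sult1a1 kept it in all 6 of those fits. Fkbp5 lost it on the 6 libraries alone (adjusted p = 0.0643).

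Of 32 antimicrobial genes 18 were tested, 9 rose and 0 fell. The median was 3.82, or 3.70 with a gene that had no read after saline set to the floor. Beside Lcn2, Saa3, Bst2 and Zbp1 these were genes best known from myeloid cells. Cybb, the catalytic subunit of the phagocyte NADPH oxidase, had 9.71, 14.2 and 4.04 CPM in the LPS libraries, against 0.102, 0.411 and 0.379 CPM in the saline libraries (log2 fold change 4.94, SE 0.66, adjusted p = 0.00124). Ncf1, another subunit of that oxidase, had 8.49, 20.8 and 5.94 CPM after LPS, against 2.19, 1.69 and 2.54 CPM after saline (log2 fold change 2.45, SE 0.55, adjusted p = 0.0428). Lyz2, lysozyme, had 10.6, 7.53 and 13.6 CPM after LPS, against 2.04, 1.23 and 2.001 CPM after saline (log2 fold change 2.59, SE 0.53, adjusted p = 0.027). Acod1, which makes itaconate, had 0.519, 2.56 and 0.825 CPM after LPS, against 0, 0 and 0 CPM after saline (adjusted p = 0.0179), and Wfdc17 had 2.405, 6.66 and 0.247 CPM after LPS, against 0, 0.137 and 0.0541 CPM after saline (log2 fold change 5.43, SE 1.18, adjusted p = 0.0381). None of these exceeded 2.54 CPM in a saline library.

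Some receptors known from phagocytes, which were not among the lists, were called too. Msr1, a scavenger receptor, had 25.8, 47.1 and 2.803 CPM in the LPS libraries, against 0.204, 0.456 and 0.866 CPM in the saline libraries (log2 fold change 5.63, SE 1.09, adjusted p = 0.0381). Fcgr2b, the inhibitory receptor for antibodies, had 36.1, 38.7 and 7.67 CPM in the LPS libraries, against 1.22, 0.274 and 0.811 CPM in the saline libraries (log2 fold change 5.16, SE 1.00, adjusted p = 0.0376). The activating receptor gene Fcgr4 had 4.196, 6.88 and 1.402 CPM after LPS, against 0, 0 and 0 CPM after saline (adjusted p = 0.00167), and Fcgr3 had 10.9, 41.4 and 22.02 CPM after LPS, against 0.817, 4.199 and 4.38 CPM after saline (log2 fold change 2.98, SE 0.65, adjusted p = 0.0455). Beside them, the 12 microglia markers summed to 118, 275 and 337 CPM after LPS, against 197, 181 and 175 CPM after saline, and edgeR called 0 of the 12, as did DESeq2, with 2 at an unadjusted p under 0.05. The 9 border macrophage markers summed to 8.91, 18.7 and 13.3 CPM after LPS, against 5.41, 6.25 and 7.63 CPM after saline, and the ranges did not overlap. The part of microglia and other myeloid cells in these rises was not tested. Counted together were Cybb, Ncf1, Lyz2, Acod1, Wfdc17, Msr1, Fcgr2b, Fcgr4 and Fcgr3. Of these 9 genes, 5, 7 and 0 lost the call without LPS control 1, 2 and 3 in turn. Without saline control 1, 2 and 3, 7, 7 and 7 lost it (adjusted p up to 0.273). Fcgr4 and Cybb kept it in all 6 of those fits. Msr1 (adjusted p = 0.0747) lost it on the 6 libraries alone, as did Fcgr3, just past the threshold.

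Of 36 astrocyte homeostasis genes, all tested, 2 rose, 0 fell and the median was -0.17. The gap junction gene Gjb6, which encodes connexin 30, had 470.4, 583 and 726 CPM in the LPS libraries, against 242, 269 and 222 CPM in the saline libraries (log2 fold change 1.28, SE 0.27, adjusted p = 0.0271). The urea transporter gene Slc14a1 had 182, 217 and 154 CPM in the LPS libraries, against 93.5, 72.01 and 106 CPM in the saline libraries (log2 fold change 1.03, SE 0.21, adjusted p = 0.0263). The water channel gene Aqp4 had 632, 616 and 559.7 CPM in the LPS libraries, against 748, 796 and 819.8 CPM in the saline libraries; its groups were apart by little and it was not called (log2 fold change -0.39, SE 0.23, adjusted p = 0.565). The following were singled out after their values were seen. Kcnt1, a sodium-activated potassium channel, had 62.1, 64.3 and 71.9 CPM in the LPS libraries, against 11.2, 15.01 and 9.47 CPM in the saline libraries (log2 fold change 2.47, SE 0.32, adjusted p = 0.000922). Lrrc8a, the obligatory subunit of volume-regulated anion channels, had 129, 140.1 and 89.5 CPM in the LPS libraries, against 29.9, 24.8 and 27.3 CPM in the saline libraries (log2 fold change 2.13, SE 0.25, adjusted p = 0.000458), and its partner subunit Lrrc8c had 169, 117 and 122 CPM after LPS, against 58.6, 46.9 and 55.6 CPM after saline (log2 fold change 1.34, SE 0.25, adjusted p = 0.0159). The 3 LPS libraries were close together for Kcnt1. For Lrrc8a LPS control 3 was the lowest, and for Lrrc8c LPS control 1 was the highest.

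Of 23 tested prostaglandin, lipid mediator and detoxification genes 2 rose, with a median of 0.38. Ptgds, the synthase of prostaglandin D, had 741, 826 and 692 CPM in the LPS libraries, against 304, 306 and 216 CPM in the saline libraries (log2 fold change 1.45, SE 0.33, adjusted p = 0.0443). Gpx1, a glutathione peroxidase, had 64.9, 153 and 53.8 CPM after LPS, against 33.1, 20.99 and 19.1 CPM after saline (log2 fold change 1.89, SE 0.41, adjusted p = 0.0383). Of these 7 genes, 3, 4 and 0 lost the call without LPS control 1, 2 and 3 in turn, and 5, 5 and 5 without saline control 1, 2 and 3 (adjusted p up to 0.222), and Kcnt1 and Lrrc8a kept it in all 6 of those fits. When LPS control 3 was left out, 4 homeostasis genes were called lower (Grm3, Phgdh, S1pr1 and Slc39a12).

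Fewer genes fell, and by less. Growth factor and matrix genes were among them. Ptn, the secreted growth factor pleiotrophin, had 295, 326 and 611 CPM in the LPS libraries, against 939, 991 and 952 CPM in the saline libraries (log2 fold change -1.23, SE 0.25, adjusted p = 0.0242). Ncan, a proteoglycan of the perineuronal matrix, was singled out after its values were seen and had 286, 362 and 382 CPM in the LPS libraries, against 897, 783 and 855 CPM in the saline libraries (log2 fold change -1.3, SE 0.22, adjusted p = 0.0082). Vegfa, the vascular growth factor, had 83.2, 43.2 and 77.4 CPM in the LPS libraries, against 195, 161 and 209 CPM in the saline libraries (log2 fold change -1.47, SE 0.28, adjusted p = 0.0168). The groups were apart for all of them. Tnc, the matrix protein tenascin C, had 8.02, 12.3 and 14.1 CPM after LPS, against 36.6, 33.04 and 47.7 CPM after saline (log2 fold change -1.77, SE 0.30, adjusted p = 0.00786), and Sned1, another matrix protein, had 9.71, 14.3 and 25.9 CPM after LPS, against 47.7, 58.9 and 56.6 CPM after saline (log2 fold change -1.72, SE 0.31, adjusted p = 0.0119). Of 26 tested astrocyte factors acting on synapses and neurons, 0 rose and 2 fell (Ptn and Vegfa), with a median of -0.32. Of 30 tested adhesion, matrix and cytoskeleton genes 2 rose (Gfap and Vim) and 1 fell (Tnc), with a median of 1.17.

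Receptor genes were also among the 28, though receptors were not one of the lists. Ednra, a receptor for endothelin, had 3.35, 3.88 and 10.7 CPM after LPS, against 22.8, 22.1 and 20.01 CPM after saline (log2 fold change -1.87, SE 0.38, adjusted p = 0.0264). Lpar1, a receptor for lysophosphatidic acid, had 8.86, 6.58 and 12.04 CPM after LPS, against 23.2, 22.1 and 33.2 CPM after saline (log2 fold change -1.51, SE 0.33, adjusted p = 0.0361). Grin3a, a subunit of NMDA receptors, had 6.79, 7.97 and 12.04 CPM after LPS, against 31.8, 27.7 and 28.3 CPM after saline (log2 fold change -1.72, SE 0.34, adjusted p = 0.0216). Gpr37, singled out after its values were seen, had 23.95, 36.1 and 29.7 CPM after LPS, against 64.3, 81.8 and 75.6 CPM after saline (log2 fold change -1.3, SE 0.26, adjusted p = 0.0211). All were lower in each LPS library than in any saline library. Which cells of the preparation these reads came from was not tested.

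Myoc (ENSMUSG00000026697, chromosome 1, 162639155 to 162649693, plus strand), the secreted protein myocilin, had 0, 1.17 and 1.24 CPM in the LPS libraries, against 11.4, 15.9 and 24.7 CPM in the saline libraries (log2 fold change -4.52, SE 0.86, adjusted p = 0.022). Among the named genes it had the largest fitted fall, from low counts after LPS. Opalin (ENSMUSG00000050121, chromosome 19, 41061710 to 41077113, minus strand), a membrane protein of myelin-forming oligodendrocytes, had 14.4, 10.02 and 18.3 CPM in the LPS libraries, against 50.4, 56.3 and 48.6 CPM in the saline libraries (log2 fold change -1.86, SE 0.32, adjusted p = 0.00786). The 12 oligodendrocyte markers summed to 4047, 5362 and 3109 CPM after LPS, against 5054, 4628 and 4137 CPM after saline, with overlap; 10 of the 12 had a negative fold change, 8 were lower at an unadjusted p under 0.05, edgeR called Opalin alone and DESeq2 called 3 lower. Ugt8a, the enzyme that makes the myelin lipid galactosylceramide, had 25.7, 28.8 and 52.4 CPM after LPS, against 86.2, 105 and 116 CPM after saline (log2 fold change -1.53, SE 0.39, adjusted p = 0.0739). The part of the oligodendrocyte RNA in the fall of Opalin, or of any other gene called lower, was not tested.

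The remaining named genes that fell differed by -1.66 to -1.38 on the log2 scale. Mapt, which encodes the microtubule protein tau, had 28.9, 28.4 and 39.1 CPM after LPS, against 57.6, 168 and 67.5 CPM after saline (log2 fold change -1.61, SE 0.33, adjusted p = 0.0263); its height after saline came mostly from saline control 2. Plekhh1 had 20.04, 22.9 and 20.2 CPM after LPS, against 89.8, 53.5 and 56.9 CPM after saline (log2 fold change -1.66, SE 0.30, adjusted p = 0.0119), and Map6d1 had 4.24, 4.901 and 5.61 CPM after LPS, against 18.98, 14.1 and 13.3 CPM after saline (log2 fold change -1.66, SE 0.33, adjusted p = 0.0204). Dlc1, a RhoGAP, had 25.98, 29.3 and 43.5 CPM after LPS, against 116, 75.5 and 72.5 CPM after saline (log2 fold change -1.42, SE 0.25, adjusted p = 0.00974). Rasl11b, a small GTPase of the Ras family, had 9.24, 6.66 and 14.4 CPM after LPS, against 24.6, 36.97 and 22.9 CPM after saline (log2 fold change -1.48, SE 0.31, adjusted p = 0.0324). Wscd1 had 56.6, 55.3 and 115 CPM after LPS, against 217, 178 and 198 CPM after saline (log2 fold change -1.39, SE 0.31, adjusted p = 0.043) and Dpy19l1 had 10.3, 16.3 and 20.1 CPM after LPS, against 43.3, 40.6 and 37.8 CPM after saline (log2 fold change -1.38, SE 0.28, adjusted p = 0.0238). All had ranges that were apart. Of the 18 lower genes named in these paragraphs, 15, 16 and 0 lost the call without LPS control 1, 2 and 3 in turn, and 14, 14 and 14 without saline control 1, 2 and 3 (adjusted p up to 0.244). Mapt lost it on the 6 libraries alone (adjusted p = 0.0578).

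Other programmes held 0 called genes by edgeR. As 0.775% of all genes tested rose and 0.154% fell, 0 calls in lists of this size say little. Apart from the cholesterol list, their medians lay near 0. The lists were 25 genes of cholesterol synthesis and uptake (23 of them with a negative fold change, median -0.39), 20 tested glycolysis genes (median -0.09), 27 immediate early and dissociation stress genes (median -0.06), 22 tested cell cycle genes (median -0.18) and 9 tested mitochondrially encoded transcripts (median -0.05). Over the 103 distinct members of these 5 lists 13 had p under 0.05 before adjustment, while DESeq2 called 1 higher and 3 lower. Of the cholesterol genes 9 were lower at an unadjusted p under 0.05, and 3 of them were called lower by DESeq2. Their median distance from the saline mean was -0.23, -0.31 and -0.73 on the log2 CPM scale in LPS controls 1, 2 and 3. In knockout astrocytes their median log2 fold change was -0.57, and edgeR called 2 lower. The stress genes, which papain digestion can switch on, had fold changes between -0.86 and 0.70. In the fit without LPS control 3, edgeR again called 0 in these lists.

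**Figure D4:**
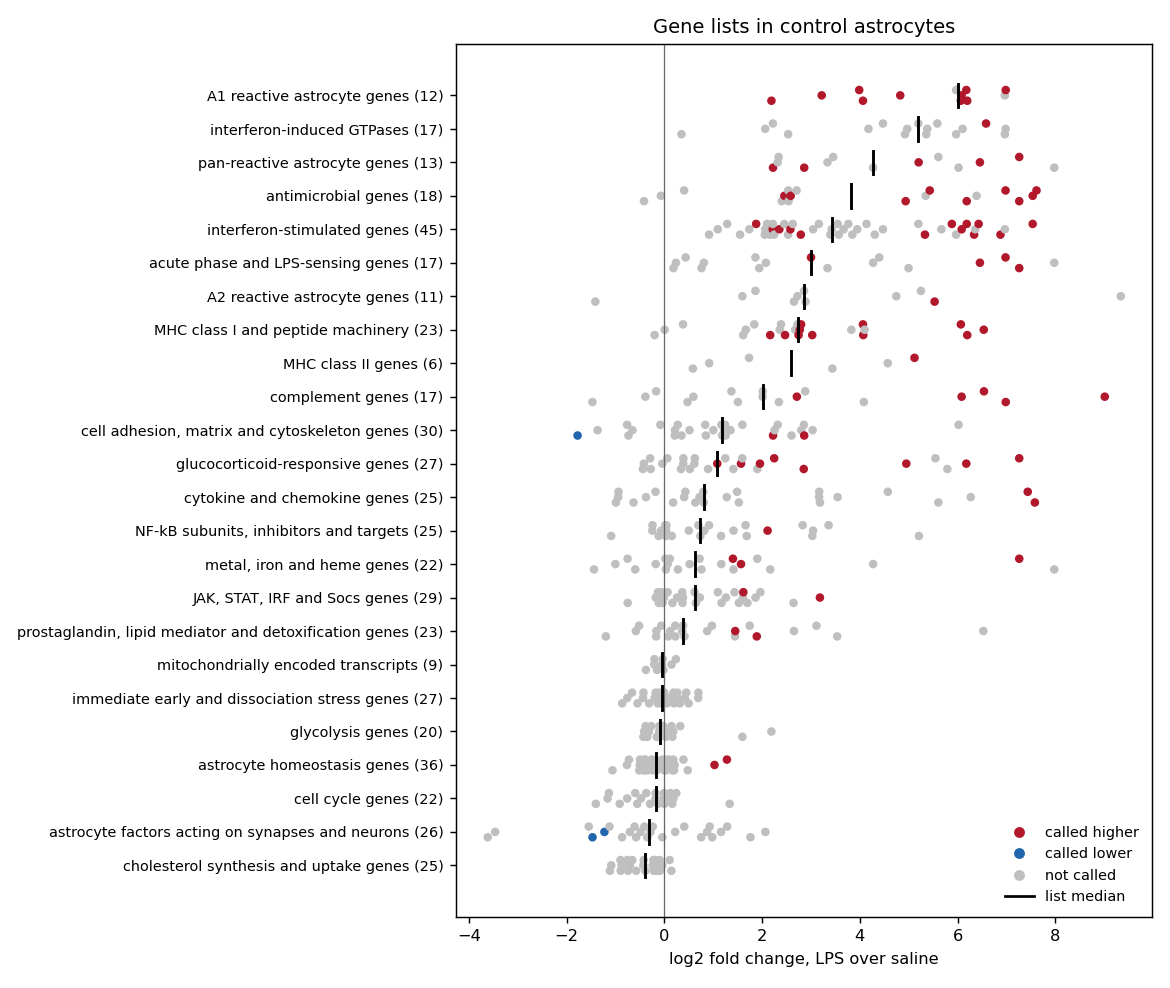
Fitted log2 fold change, LPS over saline (horizontal axis), of each tested member of the 24 gene lists (rows, with the number tested), with members called higher in red, called lower in blue and the rest in grey, and a bar at the list's median. The A1, GTPase, pan-reactive, antimicrobial and interferon-stimulated lists lie to the right with medians of 6.02, 5.2, 4.27, 3.82 and 3.42, and the cholesterol list lies left of 0 at -0.39.

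Marker sums of some other cell types differed between the groups, and in bulk RNA fewer cells of a type and less RNA per cell cannot be told apart. The 12 endothelial markers summed to 23.01, 56.3 and 21.7 CPM after LPS, against 4.90, 5.16 and 13.3 CPM after saline. The ranges did not overlap, all 11 tested members had a positive fold change, and Ly6c1, also an interferon-responsive gene, was called with 4.29, 5.34 and 0.989 CPM after LPS, against 0, 0.137 and 0.162 CPM after saline (log2 fold change 5.06, SE 0.97, adjusted p = 0.0178). DESeq2 called 6 of the 11 higher, and 8 had p under 0.05 before adjustment. Ly6c1 lost the call without LPS control 1, LPS control 2 or any saline control. The 12 neuronal markers summed to 303, 470 and 239 CPM after LPS, against 202, 150 and 172 CPM after saline, also without overlap; edgeR called 0, DESeq2 called 1 higher, and 6 were higher at an unadjusted p under 0.05. Tubb3 had 19.5, 18.1 and 3.79 CPM after LPS, against 2.19, 4.15 and 5.19 CPM after saline (log2 fold change 1.84, SE 0.57, adjusted p = 0.154). The neutrophil list includes Lcn2, and its other 11 members summed to 5.99, 8.19 and 6.27 CPM after LPS, against 1.99, 0.228 and 1.03 CPM after saline, with Camp and Ltf at 0 in all 6 libraries. T and NK cell markers summed to at most 1.603 CPM in any of the 6. The part of these cells in any result was not tested.

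**Figure D5:**
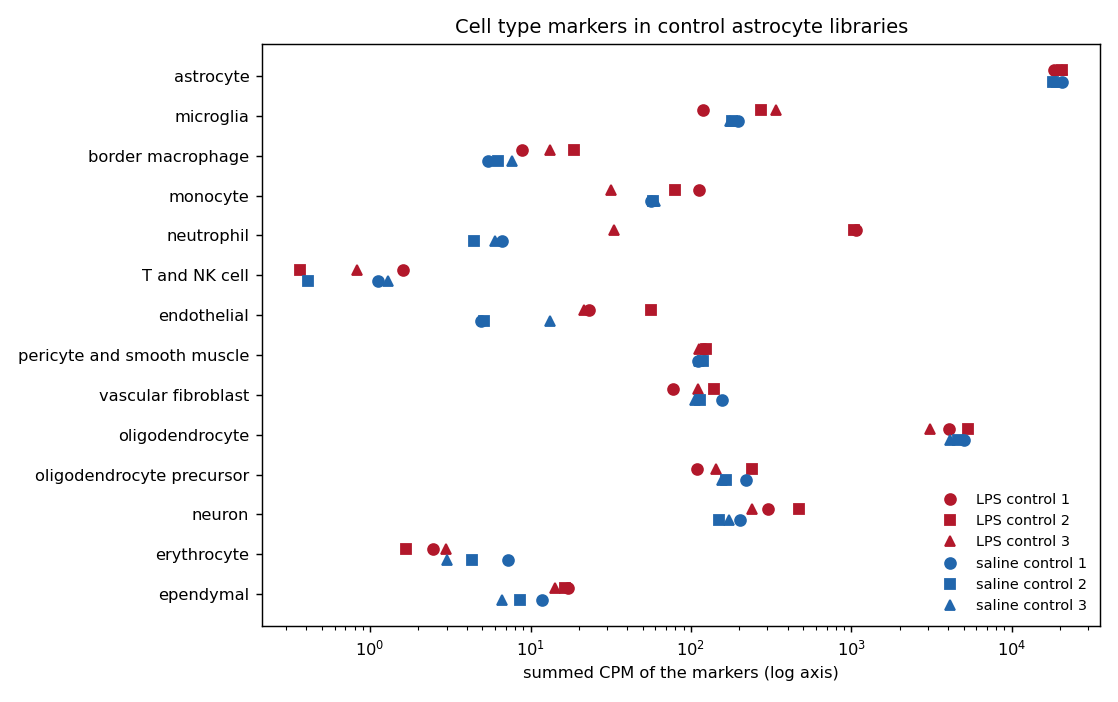
Summed CPM of each of 14 lists of cell type markers (rows) on a log axis in LPS control libraries 1, 2 and 3 (red) and saline control libraries 1, 2 and 3 (blue). Astrocyte markers lie between 17981 and 20656 CPM in all 6 libraries, oligodendrocyte markers between 3109 and 5362 CPM, and the endothelial and neuronal sums are higher in each LPS library than in any saline library; the neutrophil sum holds Lcn2.

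The same comparison was made in Serpine2 knockout astrocytes, which share no library with the controls but share the filter and the estimate of the spread. Sibling pairs shared an injection. Deviations from the group mean of same-numbered LPS control and LPS knockout libraries correlated over genes at 0.297, 0.157 and 0.354. The LPS libraries of the genotypes are thus not independent. For saline libraries these correlations were -0.100, -0.009 and 0.007. Same-numbered LPS libraries also matched in sex, whereas saline libraries 1 and 3 did not. The part of shared injections or sex in these correlations was not tested. In knockout astrocytes 245 genes (1.35%) rose and 38 (0.209%) fell. Of the 141 genes that rose in controls, 105 (74.5%) also rose in knockouts, which is 42.9% of the 245. Of the 28 that fell, 7 (25.0%) also fell in knockouts, or 18.4% of the 38. The fold change had the same sign in knockouts for all 141 and all 28, with medians of 2.75 and -0.96. Lcn2 had 822, 1122 and 369 CPM in the LPS knockout libraries, against 3.85, 6.11 and 3.73 CPM in the saline knockout libraries, a fitted change of 7.39 (SE 1.25). Serpina3n had 1111, 1361 and 393 CPM in the LPS knockout libraries, against 9.07, 17.1 and 13.1 CPM in the saline knockout libraries, a change of 6.19 (SE 0.87). In both genotypes LPS library 3 was the lowest for these genes. Myoc, by contrast, changed by -0.94 (SE 0.71) in knockouts and Opalin by -0.81 (SE 0.31), and neither was called there.

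Whether the LPS response differed between genotypes was tested directly. By edgeR 0 of 18188 genes (0%) were called, 473 had an unadjusted p under 0.05, and DESeq2 called 0, as did edgeR with the replicate number as a block. For Myoc the control minus knockout response was -3.58 (95% interval -5.90 to -1.26, adjusted p = 1). For Lcn2 it was -0.13 (95% interval -3.24 to 2.97). The intervals are not adjusted for the number of genes tested, and that of Lcn2 spans 0 widely in both directions.

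Control microglia of the same study, taken from whole brain, served as a comparison for the LPS response. In them the 12 microglia markers summed to 1804, 1078 and 1966 CPM after LPS, against 3322, 1706 and 2683 CPM after saline, and the 12 neuronal markers to 2009, 1772 and 1995 CPM after LPS, against 1875, 1571 and 2402 CPM after saline. The 12 astrocyte markers summed to 534.5, 558.1 and 496.3 CPM after LPS, against 600.4, 495.2 and 493.1 CPM after saline. Among 24607 genes tested on all 24 libraries, the LPS response was larger in astrocytes for 45 (0.183%) and lower for 5 (0.0203%). The 141 genes that rose in astrocytes had a median log2 fold change of 0.33 in microglia, 36 of them were called larger in astrocytes and 0 larger in microglia. The choice of these genes already favours astrocytes, and cell type goes with region, preparation and gene annotation here. Rows of genes held 20.7 to 29.4% of the total in control microglia, against 54.4 to 60.0% in control astrocytes. Gene counts in control microglia ran from 5354865 to 13621776. Microglia saline control 1 and saline knockout 1 had 6093966 and 6102404 gene counts, with 28860 genes detected in each. Whether these are the same library, and the part of library quality, was not tested. Without microglia saline control 1 the LPS response was larger in astrocytes for 20 genes and lower for 0. Fkbp5 changed by -0.48 (SE 0.75) in microglia, a difference of 6.65 (SE 1.19, adjusted p = 0.0182), and Plin4 by -0.04 (SE 0.49), a difference of 4.98 (SE 0.72, adjusted p = 0.00258). Both glucocorticoid-responsive genes rose in astrocytes and were not called in microglia. H2-T23 changed by 0.72 (SE 0.44) in microglia, a difference of 5.47 (SE 0.69, adjusted p = 0.000615), and Serping1 by 0.65 (SE 0.54), a difference of 5.43 (SE 0.81, adjusted p = 0.00258). C4b and Lgals3bp changed in microglia by 2.42 (SE 0.29) and 2.22 (SE 0.31), with differences of 0.29 (SE 0.39, adjusted p = 0.907) and 0.35 (SE 0.42, adjusted p = 0.875). Saa3 changed by 8.74 (SE 0.78) in microglia, and its difference was -1.77 (SE 0.90, adjusted p = 0.519). Among genes that fell in astrocytes, Grin3a alone was called in this test, with a difference of -1.94 (SE 0.39, adjusted p = 0.0284). When astrocyte LPS control 3 was left out, 186 genes were larger and 95 lower in astrocytes; without the microglia library labelled LPS control 1, whose sex label went against its transcripts, 10 were larger and 0 lower. Without that library H2-T23, Plin4 and Serping1 kept the call (adjusted p = 0.00588, 0.0131 and 0.0131), whereas Fkbp5 (adjusted p = 0.0872) and Grin3a (adjusted p = 0.0855) lost it.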

How the data were processed

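The authors deposited 1 table of whole-number read counts per gene for each library, without normalisation, as checked on the tables. The submitters' processing notes name STAR 2.6.0c, HTSeq, GRCm38 and GRCm39, with no role for either build; strand setting, counting mode and annotation are not given in the sources used here. Rows that name no gene (no feature, ambiguous, not unique and the like) were dropped; rows of genes held 54.4 to 60.0% of the total in the 6 control astrocyte libraries. Symbols were found for 55141 of 55487 astrocyte identifiers. Gene coordinates are those of GENCODE M21 on GRCm38, and promoters are RefSeq's on GRCm38.p6.

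The 12 astrocyte libraries were fitted together with edgeR 4.0.16 under R 4.3.3: filterByExpr (minimum count 10, minimum total 15), TMM factors, robust quasi-likelihood dispersions and a mean for each group. Contrasts were two-sided, with Benjamini-Hochberg adjustment and a threshold of 0.05. The difference between cell types was fitted on all 24 libraries over the 52404 identifiers shared. Log2 CPM used a prior count of 2. Up to 15 called genes per direction averaging at least 8 CPM over the 6 libraries were named by size of change, together with list members, Serpine2 and up to 5 genes per direction with the smallest p in the difference between cell types; predicted genes were only counted. Values of a further list member are not reported here. The 24 gene lists, 14 marker lists and the comparisons were chosen with earlier results of these data known, so they are no independent evidence.

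Alternatives were RLE factors, DESeq2 1.42.0, no filter, a minimum count of 50, a fit without mitochondrial and the 10 most abundant genes, a replicate block, sex as a covariate, only the 6 libraries compared, and each library left out; leaving out LPS control 3 together with LPS knockout 3 was added after seeing the data. Reads carried no molecular identifiers, so floors cover counting error only. Values of genes with near-identical copies (H2 class I, Gbp, Ifit3 and Ifit3b, Saa and Serpina3 genes, C4b) and of overlapping or antisense genes are uncertain.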

Additional observations from a re-analysis of the deposited data

Results flagged for a closer look

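The LPS response of 16 named genes, of 50 called, differed between control astrocytes and control microglia by edgeR's test of the difference itself on all 24 libraries. The values are log2 responses, astrocytes minus microglia, and cell type goes together with region, preparation and gene annotation, so these cannot be told apart. The control microglia libraries also held neuronal RNA, with marker sums of 2009, 1772 and 1995 CPM after LPS. After saline these sums were 1875, 1571 and 2402 CPM. Responses were larger in astrocytes for Fkbp5 by 6.65 (adjusted p = 0.0182), Lcn2 by 5.65 (adjusted p = 0.0153), H2-T23 by 5.47 (adjusted p = 0.000615), Serping1 by 5.43 (adjusted p = 0.00258), Isg15 by 5.35 (adjusted p = 0.0484), Serpina3n by 5.02 (adjusted p = 0.00417) and Nlrc5 by 5.0 (adjusted p = 0.036). They were also larger for Plin4 by 4.98 (adjusted p = 0.00258), Psmb8 by 4.76 (adjusted p = 0.0182), Fbln5 by 4.44 (adjusted p = 0.00258), Oasl2 by 3.82 (adjusted p = 0.0135) and Sult1a1 by 3.0 (adjusted p = 0.00258).

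For 4 genes the difference was negative. Grin3a, at -1.94 (adjusted p = 0.0284), fell in astrocytes. Slc13a3, a transporter of dicarboxylates, at -2.15 (adjusted p = 0.0323), had 34.8, 30.1 and 22.7 CPM after LPS, against 49.04, 39.5 and 33.3 CPM after saline in astrocytes and a microglial change of 1.67 (SE 0.32). Top2a, a topoisomerase of dividing cells, at -3.55 (adjusted p = 0.0361), had 5.04, 3.58 and 3.96 CPM after LPS, against 6.12, 8.03 and 13.6 CPM after saline in astrocytes and a microglial change of 2.41 (SE 0.54). Gpr50, at -8.25 (adjusted p = 0.0316), had 0, 0 and 0 CPM after LPS, against 0.868, 0.456 and 1.08 CPM after saline in astrocytes, so that its fitted value depends on the prior count and is no bound.

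Without the microglia library labelled LPS control 1, whose transcripts went against its labelled sex, 6 of the 16 kept the call (Fbln5, H2-T23, Plin4, Serpina3n, Serping1 and Sult1a1), and the other 10 had adjusted p of 0.0677 to 0.114. Leaving out microglia saline control 1 instead gave 20 genes larger in astrocytes and 0 lower. Grin3a, Slc13a3, Top2a and Gpr50 were thus not called in that fit.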

How the results depend on the processing

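Fold changes of the named genes kept their sign under every alternative in which they were tested, while the number of calls did not hold. Genes higher in control astrocytes, 141 as reported, came to 472 with DESeq2, 610 with no filter, 256 with only the 6 libraries compared, 217 with sex as a covariate and 485 without LPS control 3 and LPS knockout 3; genes lower, 28 as reported, came to 155, 194, 93, 78 and 249 in the same order. Leaving out 1 library gave 32 to 316 higher and 2 to 160 lower. In knockouts (245 and 38) DESeq2 gave 634 and 192, no filter 819 and 208; leaving out LPS control 3 and LPS knockout 3 gave 648 and 264; leaving out 1 library gave 35 to 446 and 3 to 115; only the 6 knockout libraries gave 16 lower and sex as a covariate 78 lower. For the genotype difference no filter gave 13 calls against 0. For the difference between cell types (45 and 5) DESeq2 gave 253 and 113, no filter 469 and 169, sex as a covariate 27 and 1, and leaving out 1 library 10 to 186 and 0 to 95. The causes were not tested.

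With a replicate block, control astrocytes had 216 genes higher and 70 lower, knockouts 82 lower, and the difference between cell types 74 and 18. Replicate numbers did not pair the LPS and saline libraries: deviations of same-numbered controls correlated at -0.049, -0.021 and -0.038. Alternatives in which a gene was not tested were passed over in the following counts. Of 88 named genes that were called, 74 kept the call under all other alternatives except leaving out 1 library, and 20 kept it under all of those too. A total of 11 lost it with only the 6 libraries compared (adjusted p up to 0.161). They were Cxcl9, Fcgr3, Fkbp5, H2-K1, Lcn2, Mapt, Msr1, Saa3, Serpina3n, Serping1 and Tapbp. Ccl12, Hspb1, Tm4sf1 and Wfdc17 were not tested in that fit. Of 720 list counts under alternatives, 529 stayed within 1.5 times the reported count, 100 were higher and 91 lower. Ccl12 and Acod1 had no read after saline, where a count of 0 over the group allows up to 0.0476 CPM.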
